A study of Mus musculus with 6 samples.

Results

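The genes described here encode the machinery by which a cell shows peptides on MHC class II molecules. There were 8 of them, chosen by symbol from the 54093 complete genes of the table: H2-Aa, H2-Ab1 and H2-Eb1, Cd74, Ctss, H2-DMa and H2-DMb1, and Ciita. Each symbol occurred once. They were read in right atria (RAs) of wild-type C57BL/6 mice at P21, in 3 sham-operated and 3 volume overload (VO) libraries named here sham 1 to VO 3. Volume overload was made at P7 by a needle puncture between the abdominal aorta and the inferior vena cava, and sham mice had sham surgery. Neither group carried a transgene, pups of both sexes were operated on, and nothing says whether a library came from 1 mouse or from pooled tissue. P-values therefore measure the spread between these libraries.

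Class II molecules are pairs of an alpha and a beta chain that carry peptides from endosomes to the surface of macrophages, dendritic cells and B cells, where CD4+ T cells read them. The invariant chain, Cd74, escorts the new pairs and blocks their groove. Cathepsin S (Ctss) trims the invariant chain, and the DM heterodimer exchanges the remaining fragment for a peptide. Ciita, the class II transactivator, has no DNA contact of its own and is recruited to the X and Y boxes that class II promoters share. C57BL/6 mice have the H-2b haplotype, in which the E alpha gene is a pseudogene, so that the E beta chain has no partner of its own locus.

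The values are FPKM, fragments per kilobase of gene length and per sequencing depth, with a scaling between libraries already applied by the authors. The fragments behind each value were recovered from gene length and numbered 15963082 to 17237903 per library. The RA label fitted the data, since Myl7, Nppa and Bmp10 were at 980.6 FPKM or more in every library. VO 1 stood apart from the others, with correlations across tested genes of 0.91 to 0.93 with the other libraries against 0.93 to 0.97 among the other five. It was also the library with the highest value in all 8 class II genes, and the fold changes of these genes and of the other lists are therefore also given without it. In bulk tissue, more cells of a type and more RNA per cell cannot be told apart.

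Promoter stretches of RefSeq (GRCm38.p6) are shown first, because Ciita is recruited to the X and Y boxes of class II promoters. Of the 8 genes, 5 had a window of 250 bases before and 50 after the start in the table used. The letters CTNGNAACT for the X box and TGATTGG for the Y box were chosen after these sequences had been read, and both strands were searched. H2-Aa and H2-Eb1 are shown over 101 bases that end 20 bases before their start, and Ctss over the 60 bases before it. For H2-DMb1, whose boxes lie inside the gene span of the deposited table, short pieces around the boxes are shown. Capitals mark the matches.
H2-Aa, chr17:34287843-34287943, minus strand: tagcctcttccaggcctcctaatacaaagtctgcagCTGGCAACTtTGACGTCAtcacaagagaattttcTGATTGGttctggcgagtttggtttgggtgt
H2-Eb1, chr17:34305747-34305847, plus strand: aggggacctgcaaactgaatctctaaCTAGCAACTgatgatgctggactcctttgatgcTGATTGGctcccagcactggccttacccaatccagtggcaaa
H2-DMb1 X box, chr17:34153086-34153115, plus strand: aggtttacCTAGTAACTgatgatgctaggc
H2-DMb1 Y box, chr17:34153125-34153137, plus strand: cagTGATTGGtct
Ctss, chr3:95526726-95526785, plus strand: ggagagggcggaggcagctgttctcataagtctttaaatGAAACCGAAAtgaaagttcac

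In H2-Aa, H2-Eb1 and H2-DMb1 the X box came first and the Y box followed, with 34, 33 and 34 bases from start to start. Over all 32851 promoter windows, the X letters were in 4.1% and the Y letters in 7.82%, while both on 1 strand at a distance of 30 to 40 bases were in 5 windows, or 0.0152%. Those 5 windows belonged to H2-Aa, H2-Eb1, H2-DMb1, 1700048F04Rik and BC051142. The letters were chosen after these sequences had been read, and the distance spans the spacing seen in H2-Aa, H2-Eb1 and H2-DMb1. That these genes are among the 5 was therefore fixed in advance, and the share is only a description. The run in capitals between the boxes of H2-Aa is the palindrome TGACGTCA, the binding site of CREB family factors, which was in 1.79% of windows. The window of Ctss held neither box but GAAA repeated after a gap of 2 bases, an element known from interferon-stimulated promoters and found in 3.44% of windows. The 2 windows of H2-DMa had starts 12.3 and 9.66 kilobases before the one given in the deposited table and held none of these letters.

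The peptide-binding chains were high in VO 1 and near the sham level in VO 2. H2-Aa (ENSMUSG00000036594, GRCm38 chr17:34282744-34287827, minus strand), the alpha chain of the A molecule, had 20.3, 17.03 and 13.5 FPKM in sham 1, sham 2 and sham 3, against 125.3, 16.4 and 24.3 in VO 1, VO 2 and VO 3. Only VO 1 was far from the rest, VO 2 lay inside the sham range and the groups overlapped. H2-Ab1 (ENSMUSG00000073421, chr17:34263209-34269418, plus strand), the beta chain of the same molecule, had 16.6, 10.2 and 10.1 FPKM in sham and 79.1, 12.7 and 19.6 in VO. VO 1 was 4.75 times the highest sham library, and VO 3 was above every sham library by 1.18 times. H2-Eb1 (ENSMUSG00000060586, chr17:34305877-34316199, plus strand), the beta chain of the E molecule, had 25.6, 19.0 and 13.2 FPKM in sham and 149.6, 15.7 and 31.6 in VO. It showed the widest spread within sham, 1.95 times from lowest to highest.

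Cd74 had the highest FPKM of the 8 genes and the largest distance of VO 1 from sham. Cd74 (ENSMUSG00000024610, chr18:60803848-60812646, plus strand) was at 68.7, 65.8 and 52.0 FPKM in sham and at 550.7, 59.3 and 96.8 in VO. VO 1 was 8.86 times the sham mean, VO 2 lay inside the sham range and VO 3 was 1.56 times the sham mean. By level, Cd74 was in place 640 of 54093 genes in the sham mean and in place 37 in VO 1. Ctss (ENSMUSG00000038642, chr3:95526786-95556403, plus strand), the protease that removes the invariant chain, was at 47.3, 45.8 and 42.1 FPKM in sham and at 172.6, 45.7 and 53.2 in VO. Its sham libraries were the closest together of the 8 genes, within 1.12 times, and VO 1 was 3.83 times their mean.

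The DM chains, which load the peptide, were present at lower levels and lay lowest in VO 2. H2-DMa (ENSMUSG00000037649, chr17:34135182-34139101, plus strand) was at 2.70, 3.85 and 2.92 FPKM in sham and at 12.6, 1.94 and 3.85 in VO. H2-DMb1 (ENSMUSG00000079547, chr17:34153072-34160230, plus strand) was at 2.16, 3.05 and 2.52 FPKM in sham and at 11.3, 1.40 and 3.28 in VO. Both were thus below every sham library in VO 2 and highest in VO 1, while VO 3 of H2-DMa differed from sham 2 by less than counting error. These values rested on 52 to 375 fragments for H2-DMa and 34 to 304 for H2-DMb1. H2-DMb2, a near-identical neighbour of H2-DMb1 with 3 to 28 fragments per library, could share reads with it.

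Ciita (ENSMUSG00000022504, chr16:10480059-10528418, plus strand) was the scarcest of the 8 genes. It was at 0.546, 0.371 and 0.502 FPKM in sham and at 1.94, 0.296 and 0.446 in VO. VO 1 stood above the other libraries here as well, while VO 3 lay inside the sham range and VO 2 below it. The 335 fragments of VO 1 gave an exact Poisson interval of 1.73 to 2.16 FPKM (95%, counting error only), and the 81 fragments of sham 1, the highest sham library, one of 0.434 to 0.679. With a mean of 0.683 FPKM over the 6 libraries Ciita fell under the filter of the test, which kept genes with a mean of at least 1. On its own, an exact permutation test of log2(FPKM + 0.1) gave p = 0.9 (two-sided), where the smallest value that 3 libraries against 3 allow is 0.1.

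**Figure D1:**
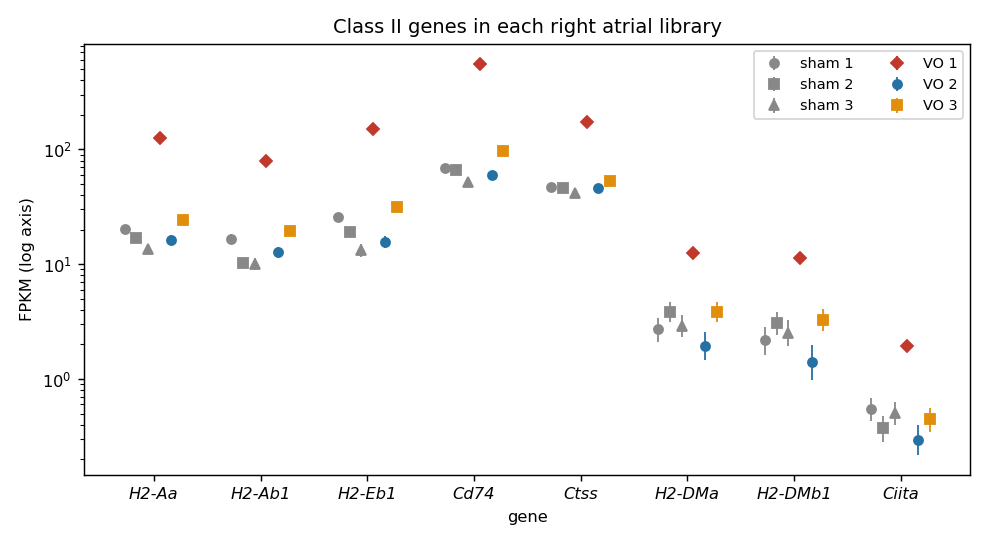
FPKM on a log axis of the 8 class II genes in the 3 sham (grey) and 3 VO (coloured) libraries; bars are exact 95% Poisson intervals of the recovered fragments. VO 1 lies above the other libraries in every gene, by 3.24 times or more, and VO 2 lies within or below the sham libraries.

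VO 1 was at least 3.24 times the highest of the other 5 libraries in all 8 genes, and 5.69 times in Cd74. Among the 12627 tested genes, 0.681% lay above 3 times the highest other library in VO 1, a limit chosen after the values had been seen. Fragments of the 8 genes made up 0.0254%, 0.0240% and 0.0195% of all fragments in the sham libraries and 0.173%, 0.0229% and 0.0342% in VO 1, VO 2 and VO 3. VO 3 was above every sham library in 7 of the 7 tested genes, which held for 27.5% of all tested genes. The distance was smallest in H2-DMa and H2-DMb1, at 1.00005 and 1.075 times the highest sham library. For Ciita, which was not tested, VO 3 lay inside the sham range. VO 2 lay inside the sham range in 5 of the 7 tested genes, where 47.4% of all tested genes did so.

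Between the groups, 0 of the 7 tested class II genes passed the test after adjustment over all genes, and 0 had an unadjusted p under 0.05. Among all tested genes, 0.00792% passed the former and 12.0% the latter. The test was limma's moderated test on log2(FPKM + 0.1), with p-values of both sides adjusted by Benjamini and Hochberg over all 12627 genes. With TPM in place of FPKM, 69.1% of the genes with an unadjusted p under 0.05 were higher in VO, against 32.5% here, and the median of all genes moved to 0.13. All 7 genes had a higher VO mean, as did 48.5% of tested genes, and the median log2 fold change was 1.14 against -0.01 over all tested genes. For Cd74 the log2 fold change was 1.25, with a standard error of 0.75, a 95% interval from -0.51 to 3.01 and an adjusted p of 0.48 from limma. H2-Ab1 had the smallest p-value of the 7, at a log2 fold change of 1.17 (unadjusted p = 0.104 and adjusted p = 0.451 from limma, standard error 0.63). H2-Aa and H2-Eb1 were at 1.14 and 1.17, Ctss was at 0.73, and H2-DMa and H2-DMb1 were both at 0.54. The spread inside VO was larger than the difference of the means: Cd74 was at 62.1 ± 8.94 FPKM in sham and 235.6 ± 273.5 in VO (SD, n = 3 libraries each).

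Without VO 1, the median log2 fold change of the 7 genes was 0.25, with 5 of 7 higher in VO. H2-Ab1 was then at 0.40, Cd74 at 0.29 and Ctss at 0.13, while H2-DMa and H2-DMb1 turned to -0.18 and -0.24. The adjusted p ran from 0.729 to 0.889 over the 7 genes in this limma fit, and 0 had an unadjusted p under 0.05, where 7.53% of tested genes did. The intervals narrowed, for Cd74 to -0.27 to 0.85 and for Ctss to -0.15 to 0.41. Without VO 2 instead, the library nearest to sham, the median was 1.71 and 5 of the 7 genes had an unadjusted p under 0.05, as did 15.8% of tested genes, with the smallest adjusted p at 0.286 in limma.

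**Figure D2:**
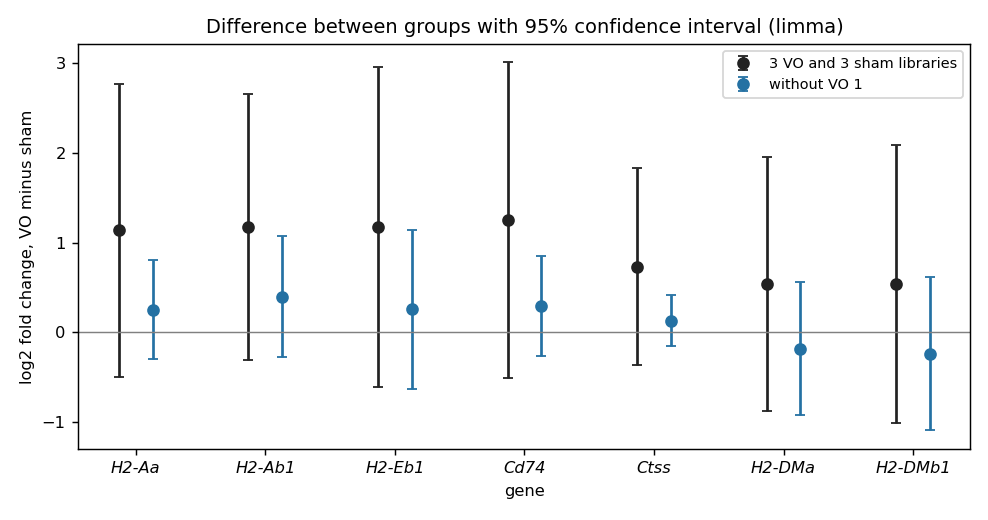
Log2 fold change between VO and sham of the 7 tested class II genes, on log2(FPKM + 0.1), with 95% intervals from limma, for all 6 libraries (black) and without VO 1 (blue). All intervals include 0; leaving out VO 1 moves Cd74 from 1.25 to 0.29 and puts H2-DMa and H2-DMb1 below 0.

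Some of the genes shared an order across libraries, while H2-Ab1 and Ciita each had an order of their own. Cd74, Ctss, H2-Aa and H2-Eb1 had 1 common order from high to low, VO 1, VO 3, sham 1, sham 2, VO 2 and sham 3, which 0.253% of tested genes had. H2-DMa and H2-DMb1 shared another, VO 1, VO 3, sham 2, sham 3, sham 1 and VO 2, found in 0.166% of tested genes. Both shared orders were read from these genes before they were counted over all tested genes, so the shares are only a description. Between neighbours in these orders the FPKM often differed by less than the counting interval, as for sham 1 and sham 2 in Cd74. Pearson's r of log2 values over the 6 libraries ran from 0.87 to 1.00 over the 28 pairs, with a median of 0.94. These pairs share libraries and the height of VO 1, and r is given only as a description.

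The proportions between partners moved less than the levels. The ratio of FPKM of H2-Aa to H2-Ab1, the 2 chains of the A molecule, ran from 1.22 to 1.67 over the 6 libraries and was 1.58 in VO 1, inside the sham range. H2-DMa to H2-DMb1 ran from 1.12 in VO 1 to 1.38 in VO 2. Cd74 to H2-Aa was 3.70 ± 0.273 in sham (SD, n = 3) and 4.397 in VO 1. The ratio of Ctss to Cd74 was lowest in VO 1: it was 0.732 ± 0.0679 in sham, 0.313 in VO 1, 0.771 in VO 2 and 0.55 in VO 3. Cd74 to H2-DMa was 17.1 to 25.4 in sham, 43.7 in VO 1, 30.5 in VO 2 and 25.1 in VO 3. Within VO 1, the genes of the peptide-binding chains and their escort were thus 6.43 to 8.86 times the sham mean, and those of peptide loading, cleavage and transcription 3.83 to 4.38 times. None of these ratios was tested.

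In the genome, 5 of the 8 genes lie in the class II region of chromosome 17, from H2-Oa at 34092340 to H2-Ea-ps at 34344643, among 20 genes of the table of which 10 were tested. The 5 other tested genes there are Brd2, which encodes a chromatin reader, and Psmb8, Psmb9, Tap1 and Tap2, which serve the class I pathway. In VO 1 these were at 1.18 times (Brd2) to 1.97 times (Psmb9) the sham mean. The 5 tested class II genes between and beside them were at 3.99 to 7.76 times. Of the class II genes below the filter, H2-DMb2 was at 1.26, H2-Eb2 at 1.85, H2-Ob at 3.71 and H2-Oa at 3.93 times. Psmb9, between H2-DMb1 and H2-Ab1, was at 5.16, 2.93 and 5.35 FPKM in sham and at 8.84, 2.88 and 5.60 in VO.

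**Figure D3:**
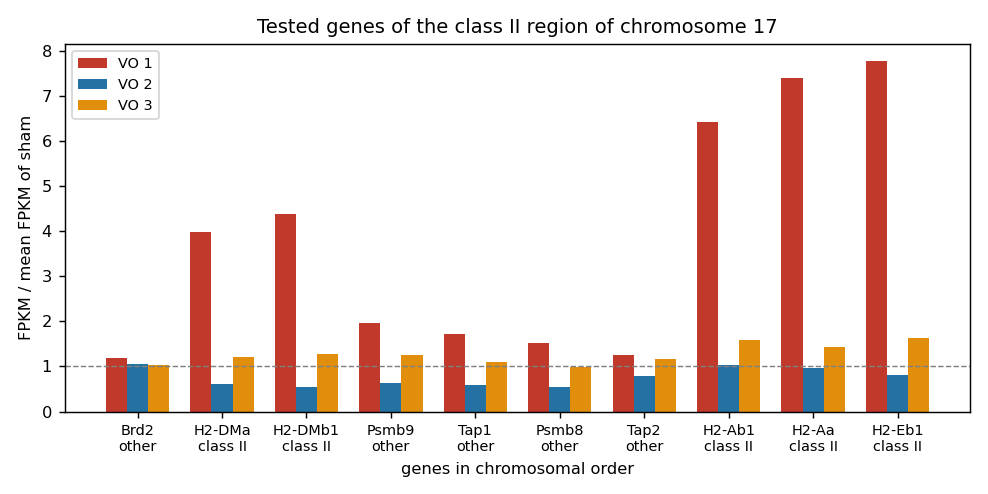
FPKM of each VO library divided by the mean FPKM of the 3 sham libraries, for the 10 tested genes of the class II region in chromosomal order. The 5 class II genes reach 3.99 to 7.76 in VO 1, and the 5 other genes 1.18 to 1.97; the dashed line is the sham mean.

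Among the other class II chain genes, 0 of 5 in the table passed the filter. H2-Ob, the beta chain of the DO protein that holds DM back, was at 0.265, 0.313 and 0.214 FPKM in sham and at 0.979, 0.253 and 0.154 in VO. VO 1 stood apart here too, on 56 fragments. H2-DMb2 was at 0.113, 0.9499 and 0.323 FPKM in sham and at 0.580, 0.359 and 0.640 in VO, without that pattern. The E alpha pseudogene H2-Ea-ps was at 0 in all 6 libraries, which allows up to 0.281 FPKM at 3 fragments in sham 1, the library with the highest such limit.

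The regulators that act with Ciita, the RFX and NF-Y subunits and Creb1, were read together with Cd83 and March1, which set the turnover of class II at the surface. Of the 9 tested genes of that list, 1 had a lower and 0 a higher VO mean at an unadjusted p under 0.05, where 8.08% and 3.89% of tested genes did. The median log2 fold change was 0.12 over the 9 genes, and 0.069 over the 8 of them still tested without VO 1. Rfxank, a subunit of the RFX complex that binds the X box, was at 7.65, 9.46 and 8.48 FPKM in sham and at 6.60, 6.71 and 5.96 in VO. All 3 VO libraries were below all sham libraries, which either way round held for 21.2% of tested genes. Its log2 fold change was -0.40 (standard error 0.12, unadjusted p = 0.0108 and adjusted p = 0.404 from limma), and -0.42 without VO 1. Cd83 and March1, named here after their values had been seen, were 2.69 and 3.04 times the sham mean in VO 1. March1 was at 0.674 to 0.971 FPKM in the other libraries and passed the filter only through VO 1.

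The endolysosomal list holds cathepsins and other proteases, a reductase and the cathepsin inhibitor cystatin C. It summed to 812.9 to 1129 FPKM in sham, 849.6 in VO 1, 824.1 in VO 2 and 847.4 in VO 3. Without Cst3, the cystatin C gene, the sum was 434.8 to 527.0 in sham, 519.6 in VO 1, 447.4 in VO 2 and 478.9 in VO 3. Of 9 tested genes 0 had an unadjusted p under 0.05, against 12.0% of all tested genes. The median log2 fold change was 0.16, or 0.079 without VO 1. In VO 1, 5 of the 9 had their highest value and 3 their lowest. Cst3, the most abundant of them, was at 601.7, 378.4 and 370.9 FPKM in sham and at 329.9, 376.7 and 368.5 in VO. Ctsd, which encodes cathepsin D, was at 213.5, 165.7 and 180.1 FPKM in sham and at 158.9, 169.6 and 167.5 in VO. Both were among the 3 genes with their lowest value in VO 1. Ifi30, the lysosomal thiol reductase, named after its values had been seen, was at 32.5 FPKM in VO 1 and at 2.97 times the sham mean.

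The class I pathway, which shows peptides of the cell's own cytosol, had its highest value in VO 1 in 10 of 11 tested genes, where 25.4% of all tested genes did. B2m, the light chain of class I, was at 750.1, 632.0 and 792.8 FPKM in sham and at 2274, 603.5 and 868.6 in VO. H2-K1, a class I heavy chain, was at 139.8, 125.2 and 150.4 FPKM in sham and at 531.7, 128.8 and 154.6 in VO. In this list 0 genes had an unadjusted p under 0.05, against 12.0% of all tested genes. The median log2 fold change was 0.11, or -0.11 without VO 1.

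Interferon gamma is the classical inducer of Ciita outside professional antigen-presenting cells. Ifng was read with 11 fragments in VO 1 (0.468 FPKM, exact 95% Poisson interval 0.234 to 0.838) and with 0 in the other 5 libraries, which allows up to 0.149 FPKM at 3 fragments in sham 1, the highest of these limits. Ifngr1, the ligand-binding receptor chain, was at 32.0, 27.9 and 25.4 FPKM in sham and at 35.2, 31.5 and 40.2 in VO. Its log2 fold change was 0.33 (standard error 0.14, unadjusted p = 0.049 and adjusted p = 0.414 from limma), with overlap between groups, and without VO 1 it was again 0.33 with an unadjusted p of 0.0735 from limma. It was the 1 of 11 tested genes of this axis with an unadjusted p under 0.05, where 12.0% of all tested genes had one. The median of the list was 0.15, and -0.07 without VO 1. The chemokine genes Cxcl9 and Cxcl10, which interferon gamma induces and which were named after their values had been seen, were 5.64 and 7.68 times the sham mean in VO 1. Without VO 1, Cxcl9 was at a log2 fold change of -0.50 and Cxcl10 at 0.52 (unadjusted p = 0.042 from limma). Cxcl10 was then the 1 of 11 genes under 0.05, against 7.53% of tested genes. All VO libraries of Cxcl10 lay above all sham libraries, against 8.25% of all tested genes.

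Costimulatory genes, which an antigen-presenting cell needs beside class II, gave 0 of 4 tested genes with an unadjusted p under 0.05, against 12.0% of all tested genes. Their median log2 fold change was 0.39, or 0.016 without VO 1. Icam1, an adhesion molecule, was at 7.33, 5.92 and 6.58 FPKM in sham and at 10.9, 6.64 and 6.48 in VO. Cd274, which encodes PD-L1, was at 3.03, 2.40 and 7.38 FPKM in sham and at 9.66, 2.66 and 6.73 in VO. All 4 were highest in VO 1.

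Macrophages and monocytes are among the cells that carry class II. The summed FPKM of 14 macrophage and monocyte markers was 313.4 to 401.7 in sham, 982.4 in VO 1, 349.0 in VO 2 and 414.7 in VO 3, and 13 of the 14 were highest in VO 1. Of the 14, 3 had a higher VO mean at an unadjusted p under 0.05, as did 3.89% of all tested genes, and 0 passed after limma's adjustment. Without VO 1 it was 4 of the 14, against 2.44%. The list had a median log2 fold change of 0.61, or 0.26 without VO 1. Ccr2, a receptor of recruited monocytes, was at 1.16, 1.12 and 1.27 FPKM in sham and at 2.99, 1.51 and 2.38 in VO (log2 fold change 0.85, unadjusted p = 0.0155, limma's adjusted p = 0.404), and without VO 1 its log2 fold change was 0.64. Cx3cr1 and Cd68 had log2 fold changes of 1.01 and 0.75, each with an adjusted p of 0.41, and of 0.55 and 0.42 without VO 1. In 5 of the 14 genes, Adgre1, Ccr2, Cd68, Csf1r and Cx3cr1, the VO libraries lay above all sham libraries, against 8.25% of all tested genes and 0 of the class II genes. Adgre1, which encodes F4/80, was 6.07 times the sham mean in VO 1, and Lyve1, a marker of resident macrophages and lymphatic vessels, 0.453 times; both were named after their values had been seen.

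The distance of VO 1 from sham varied among the macrophage markers, with 0.453 times the sham mean in Lyve1, 2.91 in Csf1r, 3.88 in Cx3cr1, 4.11 in Lyz2 and 6.07 in Adgre1. The macrophage markers not named here were at 3.21 times (Cd14) or less. Ctss, H2-DMa, Ciita and H2-DMb1, at 3.83 to 4.38 times, thus lay above every marker of the list except Cx3cr1, Lyz2 and Adgre1. H2-Ab1, H2-Aa, H2-Eb1 and Cd74, at 6.43 to 8.86 times, lay above all of the markers. Csf1r, a receptor gene that macrophages share and that was chosen after values had been seen, was at 18.3, 23.1 and 21.7 FPKM in sham and at 61.2, 24.2 and 25.04 in VO. The ratio of Cd74 to Csf1r was 2.40 to 3.76 in sham, 8.998 in VO 1, 2.45 in VO 2 and 3.86 in VO 3. That of Ctss to Csf1r was 1.94 to 2.59 in sham and 2.82 in VO 1. The part that macrophage numbers had in the class II values was not tested.

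**Figure D4:**
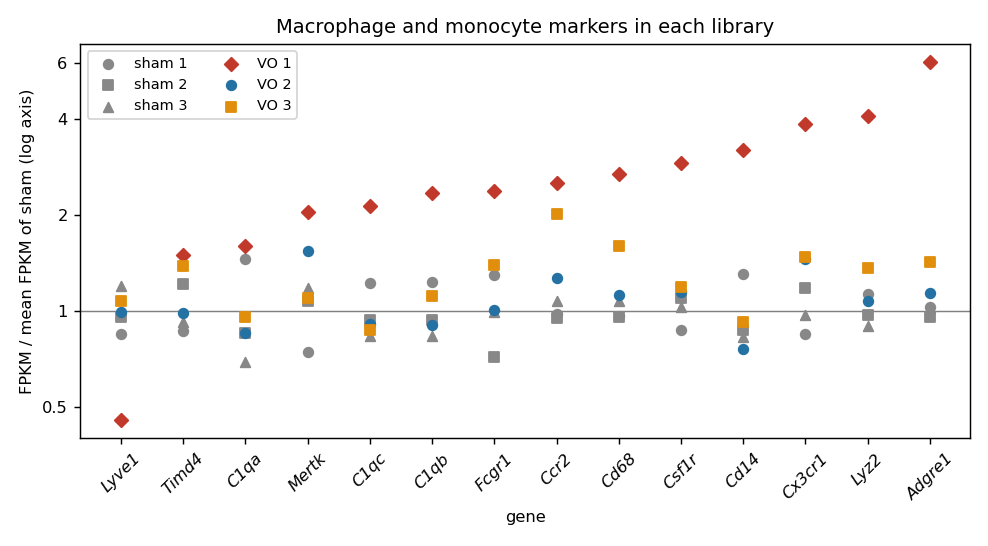
FPKM of the 14 macrophage and monocyte markers in each library divided by the mean of the 3 sham libraries, on a log axis, ordered by VO 1. VO 1 is highest in all but Lyve1, where it is at 0.453 times the sham mean, and reaches 6.07 times in Adgre1.

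Markers of other class II bearing cells were low in these libraries. Of 10 dendritic cell markers 4 were tested, with a summed level of 17.8 to 23.7 FPKM in sham, 28.9 in VO 1, 23.7 in VO 2 and 24.3 in VO 3. Flt3 did not pass 0.0984 FPKM and Xcr1 did not pass 0.483 in any library, and Siglech was at 0 in 4 of them, all named after their values had been seen. Zbtb46 and Clec9a, both tested and also named after viewing, were higher, at up to 2.508 FPKM in VO 3 and 2.96 in sham 2. In Zbtb46, 1 of the 4 tested genes, the VO libraries lay above all sham libraries, against 8.25% of all tested genes. Its log2 fold change was 0.34 (unadjusted p = 0.0905 from limma), and 0.36 without VO 1. Clec9a was at -0.10, with overlap between groups. Most of the sum was Fscn1, and without it the sum was 6.72 to 7.19 in sham, 7.97 in VO 1, 6.91 in VO 2 and 7.92 in VO 3. Of the 10 markers, 3 were highest in VO 1, and Cd209a, a lectin gene named after its values had been seen, was at 0.119 times the sham mean there. Fscn1, an actin bundler of mature dendritic cells that other cells also express, was the 1 of 4 tested genes with an unadjusted p under 0.05. Among all tested genes 12.0% had one. The log2 fold change of Fscn1 was 0.44 (limma's adjusted p = 0.413), and 0.32 without VO 1. None of the 4 had an unadjusted p under 0.05 without VO 1, against 7.53% of tested genes. The 9 B cell markers, 2 of them tested, summed to 6.64 to 7.08 FPKM in sham, 13.9 in VO 1, 7.81 in VO 2 and 8.86 in VO 3. Cd79b, a chain of the B cell receptor, was at 1.84, 1.66 and 1.07 FPKM in sham and at 4.62, 2.10 and 1.83 in VO, and Ebf1 was at 4.73, 3.82 and 5.26 in VO against 3.48 to 4.27 in sham. For both lists, the part in the class II values was not tested.

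T cells read class II. Cd3e, named after its values had been seen, did not pass 0.284 FPKM, its value in VO 1, and 9 of the 10 T cell markers were highest in that library. The exception was Trac, at 29.1, 16.6 and 15.0 FPKM in sham and at 6.84, 15.2 and 17.7 in VO, which made up most of the summed 16.3 to 30.8 FPKM of the list in sham, 13.2 in VO 1, 16.8 in VO 2 and 20.9 in VO 3. Trbc2 ran from 0 FPKM in sham 3 to 1.35 in VO 1. Thymus, a class II rich organ beside the atria, was checked by 10 markers, which summed to 2.74 to 3.78 FPKM in sham, 6.09 in VO 1, 3.71 in VO 2 and 9.49 in VO 3. Most of each sum was Cd1d1, which is not limited to thymus and was at 2.65, 2.87 and 2.41 FPKM in sham and at 5.53, 3.53 and 7.90 in VO (log2 fold change 1.00, unadjusted p = 0.0079, limma's adjusted p = 0.383, and 0.98 without VO 1). Foxn1, the factor of thymic epithelium, was at 0 in every library. Among genes of immature thymocytes, Dntt was at 0.0302 to 0.0866 FPKM in sham, 0 in VO 1 and VO 2 and 0.600 in VO 3. Ptcra was at 0.0948 FPKM in VO 3 and at 0 elsewhere, and Rag1 was at 0.0292 to 0.202 in sham, 0.259 in VO 1, 0.00928 in VO 2 and 0.322 in VO 3. Themis was also highest in VO 3, at 0.0729 FPKM. Cd8b1 and Rag2 were instead highest in sham 2, at 0.509 and 0.0508 FPKM, against 0.451 and 0.0355 in VO 3. The genes from Foxn1 onward were named after their values had been seen, and the part of thymus in the class II values was not tested.

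The 8 atrial cardiomyocyte markers summed to 20977 to 27071 FPKM in sham, 10090 in VO 1, 18218 in VO 2 and 14056 in VO 3, and 7 of 8 were lowest in VO 1. Of the 8, 5 had a lower VO mean at an unadjusted p under 0.05, as did 8.08% of all tested genes, and 2 did without VO 1, Actc1 and Tnnt2, against 5.09%. The 5 included Actc1, Tnnt2, Myl4 and Myl7 with log2 fold changes of -0.86, -0.59, -0.90 and -0.81 and a limma adjusted p of 0.373 to 0.41. Without VO 1 these were -0.71, -0.38, -0.54 and -0.56, and the median of the list moved from -0.70 to -0.48. The 7 endothelial markers summed to 235.6 to 255.5 FPKM in sham, 252.2 in VO 1, 267.8 in VO 2 and 352.4 in VO 3. Without Fabp4, which was at 138.7 FPKM in VO 3 and was named after its values had been seen, the sum was 201.6 to 213.4 in sham, 213.1 in VO 1, 222.4 in VO 2 and 213.7 in VO 3. Of the 7, 1 gene was higher and 1 lower in VO at an unadjusted p under 0.05, where 3.89% and 8.08% of all tested genes were. Without VO 1, 0 of the 7 passed this, against 7.53% of tested genes. The 2 genes were Cdh5 and Emcn, with log2 fold changes of 0.28 and -0.25, an adjusted p of 0.41 each from limma, and 0.24 and -0.20 without VO 1. The part of the tissue make-up in the class II values was not tested.

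**Figure D5:**
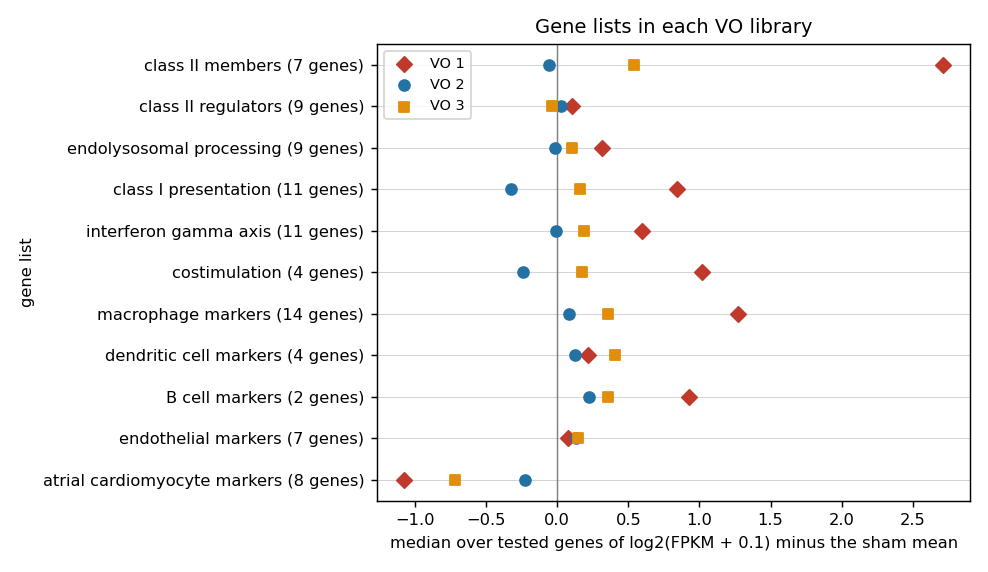
Median over the tested genes of each list of log2(FPKM + 0.1) minus the mean of the 3 sham libraries, for VO 1, VO 2 and VO 3. The class II genes are at 2.72, -0.06 and 0.54, the macrophage markers at 1.27, 0.08 and 0.36, and the atrial cardiomyocyte markers at -1.08, -0.23 and -0.72.

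The 10 tested genes most like the class II genes, by Pearson's r over the 6 libraries with the mean of their centred log2 values, were Stmn1, Hacd4, Cotl1, Mospd2, P2ry6, Tnpo1, Kif11, Tnfaip3, Gpr65 and Hdac1, with r from 0.99 to 1.00. Stmn1, which encodes the microtubule regulator stathmin, led the list with 6.32, 5.73 and 5.43 FPKM in sham and 13.4, 5.17 and 6.90 in VO. Kif11, a mitotic kinesin, was at 0.814, 0.758 and 0.573 FPKM in sham and at 2.93, 0.636 and 1.03 in VO. The receptor genes P2ry6 and Gpr65 were at 8.21 and 5.91 FPKM in VO 1, against 3.87 and 2.10 or less in sham. The profile that the 10 genes were compared with was -0.29, -0.41 and -0.61 in sham and 2.02, -0.71 and 0.00020 in VO, so that r rests mostly on VO 1. Kif11 and Tnfaip3 passed the filter of a mean of 1 FPKM only through VO 1, so their place among the tested genes rests on that library too.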

How the data were processed

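The authors aligned paired-end reads of 6 RA libraries with HISAT2, counted fragments of each gene by featureCounts and deposited FPKM computed from gene length and counts; the submitters' processing notes name GRCm38, and the annotation release is not given in the sources used here. Of the 54094 lines, 1 was incomplete and left out. FPKM times gene length was a whole multiple of 1 step per library for 100% of values above 0 (within 0.01), which gave fragments. Median-of-ratios factors were 1 in every library. The 12627 genes whose FPKM averaged 1 or more were fitted on log2(FPKM + 0.1) with limma 3.58.1 in R 4.3.3 (eBayes with trend), VO against sham, without covariates; the fit was tested on simulated data. Fold changes on this scale understate low genes. The class II genes and lists were chosen with earlier results of these data known. Each list's members with an unadjusted p under 0.05 are named (at most 4, smallest p first), otherwise the 2 with the highest mean FPKM. Most other names are marked, but some named outside this rule, such as Ifng and Lyz2, are not. Alternatives were pseudocounts, filters, scalings, variance models, voom on fragments, the replicate number as a block and leaving out each library. DESeq2, which the authors used, was not run. Plots were drawn with matplotlib 3.10.9.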

Additional observations from a re-analysis of the deposited data

How the results depend on the processing

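With 3 libraries per group, 1 of which stood apart, wide intervals limit every comparison, and counting error is widest for genes with few fragments, such as Ciita, the DM chains, H2-Ob and Ifng. The median log2 fold change of the class II genes stayed above 0 in all 18 alternatives, from 0.25 without VO 1 to 1.71 without VO 2, both ends coming from the libraries left out. The adjusted p of every tested class II gene was 0.286 or more in all of them. H2-DMa (-0.18 to 1.13) and H2-DMb1 (-0.24 to 1.22) took their lowest value, below 0, without VO 1 and their highest without VO 2, and neither was tested with a mean FPKM of at least 5. The number of class II genes with an unadjusted p under 0.05 was 0 to 5 with 1 library left out. The replicate numbers did not pair the libraries (correlations of residuals -0.11, 0.011 and -0.029); with the replicate block, 1 class II gene, H2-Ab1, had an unadjusted p under 0.05 (0.0264), and 932 genes in all did, against 1511. Over all genes, 1 passed the adjusted threshold; 2 did with a pseudocount of 1, 3 with a mean FPKM of at least 0.1 and 3 with eBayes without trend, while 0 did with quantile normalization, robust eBayes, the replicate block or any library left out (0 to 0). Voom on the recovered fragments called 1 gene, and 1616 genes had an unadjusted p under 0.05 there. With TPM the median of all tested genes moved from -0.01 to 0.13. Alternatives for the medians of the other lists were added after the data were seen. The causes of these changes were not tested.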
